A study of Mus musculus with 12 samples.

Results

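This report describes 5 hemoglobin genes in the hearts of mouse embryos at embryonic day 9.5. They are the embryonic beta-like genes Hbb-y and Hbb-bh1, the embryonic alpha-like gene Hba-x, and the adult-type alpha genes Hba-a1 and Hba-a2. They were chosen by symbol, with earlier results of these data known, and all 5 were found among the 15663 genes of the joined expression tables. RNA of whole hearts was sequenced in 12 libraries, 3 for each of 4 genotypes, and every embryo carried the Cre transgene labelled NkxCre on the strain labelled C57/BL 6. The control was NkxCre.Asb2fl/+, with a single floxed allele of Asb2, which encodes a substrate-recognition subunit of an E3 ubiquitin ligase. The Asb2 conditional knockout (Asb2 cKO) was NkxCre.Asb2fl/fl. The group called Flna-labelled here was NkxCre.Asb2fl/+.Flnafl/fl, with floxed alleles of Flna, which encodes the actin crosslinker filamin A. The double mutant was NkxCre.Asb2fl/fl.Flnafl/fl. A floxed Asb2 allele and the Cre transgene were therefore shared by the controls and all mutants, and no group analysed here lacks them. The labels do not say which cells the transgene marks or whether libraries came from single or pooled embryos, so the p-values measure the spread between libraries, which may be technical.

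Hemoglobin carries oxygen in red blood cells as a tetramer of alpha-type and beta-type chains, each holding a heme group. In the mouse embryo the first red cells, the primitive erythroid cells, arise in the yolk sac and enter the circulation when the heart starts to beat. They make the embryonic chains from Hbb-y, Hbb-bh1 and Hba-x together with adult-type alpha chains, while the adult beta genes Hbb-bs and Hbb-bt belong mainly to the definitive red cells that follow. Circulating blood fills the chambers of the heart. In whole-heart RNA, fewer red cells and less globin RNA per red cell cannot be told apart.

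The genes lie in a pair of clusters (GRCm38/mm10, GENCODE M21), and each is protein-coding. On the minus strand of chromosome 7 the beta cluster holds Hbb-y at chr7:103851749-103853216, Hbb-bh1 at chr7:103841637-103843164, Hbb-bs at chr7:103826534-103828096 and Hbb-bt at chr7:103812524-103813996. On the plus strand of chromosome 11 the alpha cluster holds Hba-x at chr11:32276400-32278116, Hba-a1 at chr11:32283511-32284465 and Hba-a2 at chr11:32296489-32297298. The promoter table (RefSeq, GRCm38.p6) matched 4 of the 5 genes; Hbb-bh1 had no entry. The 130 bases before the RefSeq start are printed for Hbb-y, Hba-x and Hba-a1, whose transcripts moved together across the genotypes, and for the adult beta genes Hbb-bs and Hbb-bt, of which Hbb-bs changed less. Each reads 5′ to 3′ on the gene's strand, and capitals mark the motifs that were searched.
Hbb-y: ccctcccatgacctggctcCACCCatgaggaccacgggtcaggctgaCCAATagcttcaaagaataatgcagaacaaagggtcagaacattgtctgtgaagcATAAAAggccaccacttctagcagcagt
Hba-x: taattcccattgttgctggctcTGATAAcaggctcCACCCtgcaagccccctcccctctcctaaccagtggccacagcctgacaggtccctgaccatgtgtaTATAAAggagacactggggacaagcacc
Hba-a1: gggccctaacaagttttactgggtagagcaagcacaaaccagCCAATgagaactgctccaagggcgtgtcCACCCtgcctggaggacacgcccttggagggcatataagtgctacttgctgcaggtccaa
Hbb-bs: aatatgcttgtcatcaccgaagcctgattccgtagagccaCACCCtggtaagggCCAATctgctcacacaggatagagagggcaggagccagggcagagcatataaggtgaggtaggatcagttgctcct
Hbb-bt: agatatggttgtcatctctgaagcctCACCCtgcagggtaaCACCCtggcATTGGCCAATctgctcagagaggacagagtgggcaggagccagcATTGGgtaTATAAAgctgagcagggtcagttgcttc

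These windows are chr7:103853208-103853337 (minus strand) for Hbb-y, chr11:32276470-32276599 (plus) for Hba-x, chr11:32283542-32283671 (plus) for Hba-a1, chr7:103827929-103828058 (minus) for Hbb-bs and chr7:103813924-103814053 (minus) for Hbb-bt. GENCODE places the starts of all 5 of these genes farther upstream than RefSeq does. Searched on both strands of the 300 bases around each start were CACCC, a core bound by Klf1 and its relatives, AGATAA and TGATAA, which Gata1 can bind, CCAAT, and the TATA-like boxes TATAAA and ATAAAA, which can share bases. A CACCC match lay 111 bases before the start in Hbb-y, 95 and 198 in Hba-x, 60 and 167 in Hba-a1, 90 in Hbb-bs and 89, 104 and 140 in Hbb-bt. It occurred in 57.5% of all 32851 promoters in the table. CCAAT, present in 37.4% of promoters, lay 83 bases before the start in Hbb-y, 88 in Hba-a1, 76 in Hbb-bs and 75 in Hbb-bt, where it also matched on the opposite strand at 80 and 36. TGATAA was rarer, in 9.05% of promoters, and matched 108 bases before the start in Hba-x, 183 in Hba-a1 and, on the opposite strand, 162 in Hbb-y. AGATAA (11.2% of promoters) matched in Hbb-bs, 210 bases before the start. A TATA-like box began 28 bases before the start in Hba-x and Hbb-bt (TATAAA, 13.6% of promoters) and in Hbb-y (ATAAAA, 18.5%). The same 130-base windows of Hba-a1 and Hba-a2, of which the latter is not printed, were 95.5% identical over their alignment, while those of Hba-x and Hba-a1 were 49.7% identical. The matches describe letters in these windows, and binding was not measured.

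The near-identity of some globin genes bears on how reads could be assigned to them. The coding sequences of Hba-a1 and Hba-a2 were 99.8% identical, differing at 1 base and sharing a run of 380 bases, so the split of reads between them is uncertain and their sum is more reliable than either. Hbb-bs and Hbb-bt were likewise 99.8% identical. The embryonic genes stood apart, with 76.4% identity between Hbb-y and Hbb-bh1 and 64.7% between Hba-x and Hba-a1. The recovered read number of Hbb-bs was even in 12 of 12 libraries and that of Hbb-bt in 11 of 12. Among 13725 genes with at least 10 reads in every library, 149 (1.09%) had even numbers in all 12, and the embryonic and alpha genes had them in 4 to 7 libraries. How reads matching several places were counted is not given in the sources used here.

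The libraries held 25954539 to 42473118 reads in listed genes. Levels are the deposited CPM, which are read counts divided by a scaled library size and in which 1 read was worth 0.0239 to 0.038 CPM, and groups were compared with limma on log2(CPM + 0.5). Hbb-y, Hbb-bh1 and Hba-x had at least 2845 reads in every library, Hba-a1 at least 198 and Hba-a2 at least 56. Asb2 had 230 ± 54.1 CPM in the control and 119 ± 42.7 in the Asb2 cKO (SD, n = 3) and fell there (adjusted p = 0.0248, limma). The Flna-labelled group, labelled Asb2 fl/+ like the control, had 145 ± 45.4 CPM of Asb2 and the double mutant 132 ± 18.0 (log2 fold change against the control -0.68 and -0.78, adjusted p = 0.334 and 0.00724, limma). The Flna-labelled and Asb2 cKO libraries overlapped in Asb2 (adjusted p = 0.457, limma), so its level does not separate the libraries by Asb2 label. Flna was not lower where it was labelled deleted: the control had 589 ± 119 CPM, the Flna-labelled group 986 ± 26.4 and the double mutant 1057 ± 77.6 (adjusted p = 0.147 and 0.00255, limma). The Asb2 cKO, without the Flna label, had 875 ± 153 CPM (adjusted p = 0.0464 against the control, limma). The higher Flna level was thus not particular to the Flna label. A count over a whole gene need not fall when some exons are removed, so this checks neither label, and statements about the Flna label rest on the label alone. Xist was at 1 CPM or more in 2 control, 2 Asb2 cKO, 0 Flna-labelled and 1 double mutant libraries. Those of the control and Asb2 cKO had 106 to 571 CPM, and that of the double mutant had 9.34 CPM. High Xist thus occurred only without the Flna label, so embryo sex and that label cannot be fully told apart. A part of embryo sex in the globin results was not tested.

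In the control hearts the embryonic globins were far more abundant than the adult-type alpha genes. Scaled by the deposited gene length, the order was Hbb-y at 6220 ± 626 CPM per kilobase, Hbb-bh1 at 2477 ± 383, Hba-x at 1987 ± 117, Hba-a1 at 108 ± 16.1 and Hba-a2 at 37.4 ± 2.22 (SD, n = 3). The neighbours Hbb-bh1 and Hba-x lay within their combined spread in this order, and the other steps exceeded it. The adult beta genes were lower still, with Hbb-bt at 11.9 ± 6.24 and Hbb-bs at 8.72 ± 3.295 CPM per kilobase, and these were not separated from each other. Together the 5 genes took 0.706 to 0.780% of the deposited signal in the control libraries. Their share was 0.303 to 0.411% in the Flna-labelled libraries, 0.0508 to 0.116% in the Asb2 cKO and 0.0330 to 0.0597% in the double mutant. The order of the groups was thus control, Flna-labelled, Asb2 cKO and double mutant, with the ranges of the last pair overlapping.

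**Figure D1:**
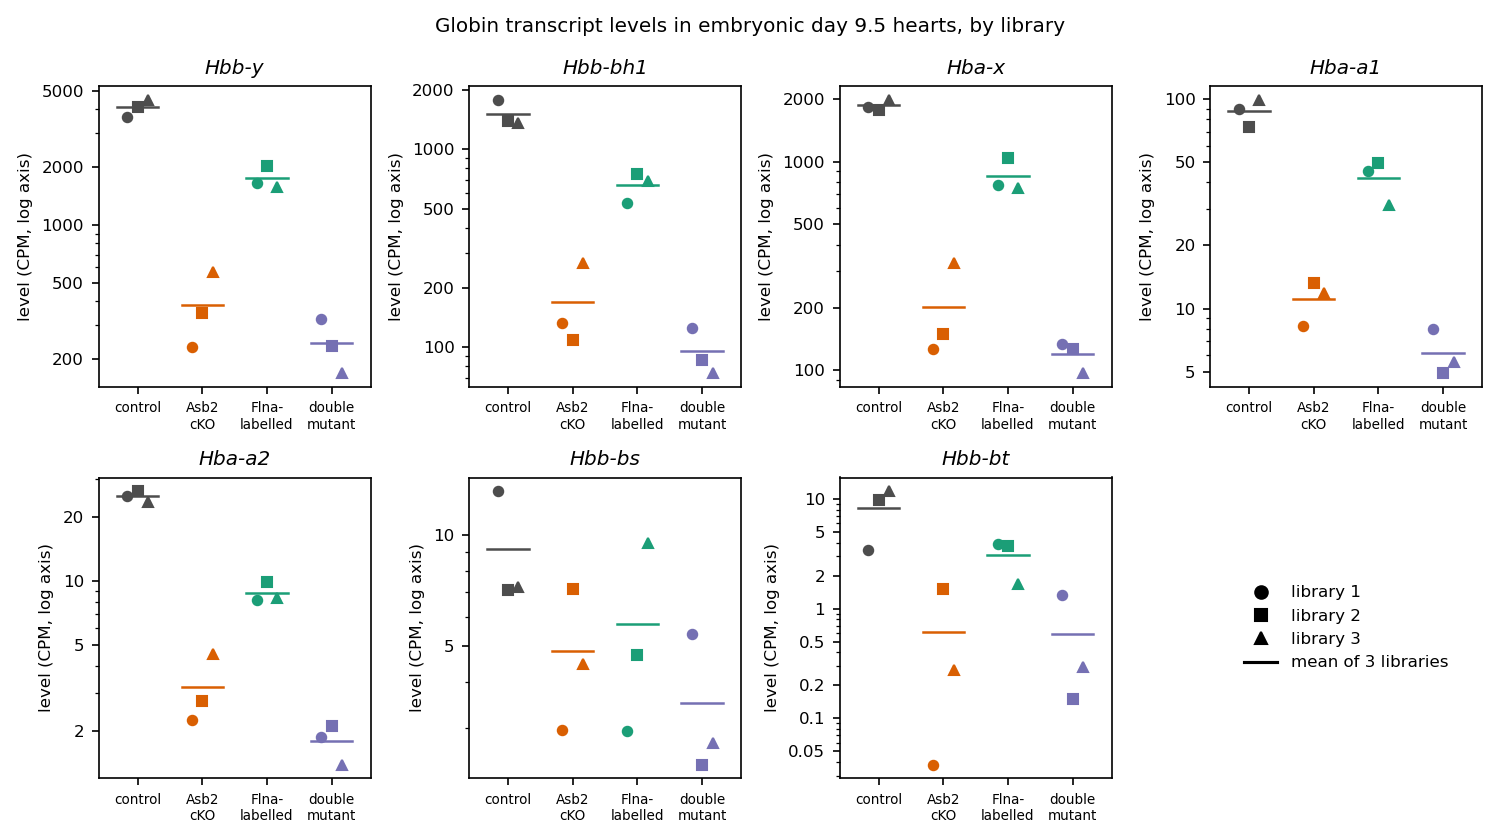
Level of each globin gene in CPM (log axis, 1 panel per gene) in the 12 libraries by genotype group; symbols mark the library number and lines the mean of 3 libraries. The 5 genes Hbb-y to Hba-a2 fall in the same group order, from control through Flna-labelled to the Asb2 cKO and double mutant. The means of Hbb-bs have this order too, but its control and Asb2 cKO libraries overlap. It runs from 7.08 to 13.2 CPM in controls and from 2.96 to 7.14 CPM in the Asb2 cKO.

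The main embryonic beta-like chain fell about as far as any gene in the group. Hbb-y, also called epsilon-y, reached 3668, 4119 and 4491 CPM in control hearts. The Asb2 cKO libraries held 231, 347 and 567 CPM of it, the Flna-labelled ones 1657, 2025 and 1575 CPM and the double mutants 322, 234 and 169 CPM. Every control library was above every Flna-labelled library, and both were above all libraries with floxed Asb2 on both alleles, among which the Asb2 cKO and double mutant overlapped. The mean of the Asb2 cKO was 10.7-fold below the control, a log2 fold change of -3.51 with an SE of 0.27 (adjusted p = 9.25e-05, limma). In the double mutant the mean was 17.0-fold below, a log2 fold change of -4.13 with an SE of 0.21 (adjusted p = 3.82e-06, limma).

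Hbb-bh1, the other embryonic beta-like gene, is expressed most strongly in the first primitive red cells. Control hearts held 1783, 1398 and 1360 CPM of Hbb-bh1, Asb2 cKO hearts 132, 108 and 265 CPM, Flna-labelled hearts 536, 746 and 694 CPM and double mutant hearts 125, 86.2 and 73.9 CPM. The groups were ordered as for Hbb-y, and again only the Asb2 cKO and double mutant overlapped. The mean was 8.98-fold lower in the Asb2 cKO and 15.9-fold lower in the double mutant than in the control, with log2 fold changes of -3.26 (SE 0.29) and -4.01 (SE 0.19). Both passed (adjusted p = 0.000255 and 2.75e-06, limma).

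The embryonic alpha-like gene Hba-x encodes the zeta chain, which pairs with the embryonic beta-like chains. Its control libraries were at 1819, 1769 and 1979 CPM, a narrow spread. The Asb2 cKO libraries were at 126, 149 and 328 CPM, the Flna-labelled ones at 772, 1038 and 747 CPM and the double mutant ones at 134, 127 and 97.0 CPM. Library 3 of the Asb2 cKO was the highest of its group for Hbb-y, Hbb-bh1, Hba-x and Hba-a2, but it stayed below every Flna-labelled library. The mean of Hba-x was 9.23-fold lower in the Asb2 cKO and 15.6-fold lower in the double mutant, with log2 fold changes of -3.33 (SE 0.30) and -3.97 (SE 0.14). Both passed (adjusted p = 0.000296 and 3.28e-07, limma).

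The adult-type alpha genes, which primitive red cells also use, fell with the embryonic genes. Control hearts held 89.9, 73.7 and 99.3 CPM of Hba-a1, Asb2 cKO hearts 8.23, 13.3 and 11.9 CPM, Flna-labelled hearts 45.4, 49.3 and 31.2 CPM and double mutant hearts 8.01, 4.92 and 5.57 CPM. Its 4 groups did not overlap, the lowest Asb2 cKO library lying just above the highest double mutant library. For Hba-a2 the control hearts held 24.9, 26.3 and 23.3 CPM, Asb2 cKO hearts 2.24, 2.74 and 4.58 CPM, Flna-labelled hearts 8.12, 9.87 and 8.34 CPM and double mutant hearts 1.86, 2.11 and 1.39 CPM. Here too no pair of groups overlapped. For either gene the difference between the double mutant and the Asb2 cKO did not pass (adjusted p = 0.999 for each, limma). For pairs of groups without the control, the share of all genes that did not overlap is not given here. Against the control, Hba-a1 changed by -2.94 in the Asb2 cKO and -3.74 in the double mutant on the log2 scale (adjusted p = 2.89e-05 and 1.96e-06, limma). Hba-a2 changed by -2.83 and -3.48 (adjusted p = 0.00011 and 3.82e-06, limma).

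All 5 genes thus passed the test as lower in the Asb2 cKO than in the control, where 10.9% of the 14034 genes tested did, and their median log2 fold change was -3.26 against -0.01 over all genes. All 5 likewise passed as lower in the double mutant than in the control, where 16.7% of the 14015 genes tested did. Both comparisons use the same control libraries. Read by ranges in place of a test, the libraries of the Asb2 cKO lay wholly below the control for the 5 genes and for 21.5% of all genes, and those of the double mutant for the 5 genes and for 24.2% of all genes. The calls for the 5 genes against the control in these groups held in each of the alternative settings, with adjusted p up to 0.00649 in the Asb2 cKO and up to 0.000888 in the double mutant.

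The libraries labelled Flna-deleted, which kept an unfloxed Asb2 allele, had globin levels between the control and the Asb2 cKO. Their means were 42.8% of the control for Hbb-y, 43.5% for Hbb-bh1, 45.9% for Hba-x, 47.9% for Hba-a1 and 35.3% for Hba-a2. None of these 5 genes overlapped between the groups, which held in the lower direction for 8.71% of genes. By limma, 4 of the 5 passed as lower, where 0.0432% of the 13891 genes tested did (6 genes). The log2 fold changes were -1.23 for Hbb-y, -1.20 for Hbb-bh1, -1.14 for Hba-x and -1.45 for Hba-a2 (adjusted p = 0.0223, 0.0282, 0.0223 and 0.0223, limma). Hba-a1 had a log2 fold change of -1.07 with an adjusted p of 0.147. The split of reads between Hba-a1 and Hba-a2 is uncertain, and their sum was not tested against the control. The 4 calls depended on the fit. All 4 were lost with the quasi-likelihood test of edgeR on recovered reads (adjusted p = 0.0536 to 0.0729). The same held in a limma fit of the 4 groups together (adjusted p = 0.0698 to 0.271). They were also lost on leaving out any of 4 single libraries, namely control 1, 2 or 3 or Flna-labelled 1 (adjusted p = 0.054 to 0.142, limma). With DESeq2 all 4 passed, as did Hba-a1 (adjusted p = 1.55e-05, DESeq2). Each of the 4 calls held in 9 of 17 alternatives. The log2 fold changes of these 4 genes stayed between -1.54 and -1.05 over all alternatives. In the authors' deposited table for this comparison all 5 genes passed (FDR 0.000239 to 0.00636), where 0.78% of its genes did.

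Where Asb2 was floxed on both alleles, adding the Flna label gave somewhat lower values that did not pass the test. The double mutant had 63.3% of the Asb2 cKO mean for Hbb-y, 56.5% for Hbb-bh1, 59.3% for Hba-x, 55.4% for Hba-a1 and 56.1% for Hba-a2. None of the 5 passed (adjusted p = 0.999 for each, limma), where 0.00712% of the 14037 genes tested passed as lower (1 gene). The 95% interval of the log2 fold change was -1.35 to 0.12 for Hbb-y, -1.47 to -0.03 for Hbb-bh1, -1.35 to 0.08 for Hba-x, -1.36 to -0.25 for Hba-a1 and -1.35 to 0.05 for Hba-a2. Except for Hba-a2, the interval includes the change seen with the Flna label against the control, so the data do not show that the label made no difference here.

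Comparing the groups with the Flna label against each other, the second floxed Asb2 allele again went with lower globins. All 5 genes passed as lower in the double mutant than in the Flna-labelled group, where 16.3% of the 13954 genes tested did. The means fell 7.26-fold for Hbb-y, 6.92-fold for Hbb-bh1, 7.15-fold for Hba-x, 6.80-fold for Hba-a1 and 4.91-fold for Hba-a2 (adjusted p = 4.55e-05 to 0.000496, limma). The groups in the middle of the order also differed: all 5 genes were higher in the Flna-labelled group than in the Asb2 cKO, where 7.54% of genes passed as higher. The log2 differences were 2.29 for Hbb-y, 2.06 for Hbb-bh1, 2.20 for Hba-x, 1.87 for Hba-a1 and 1.38 for Hba-a2 (adjusted p = 0.00221 to 0.0132, limma). That of Hba-a2 did not pass without Flna-labelled library 2 (adjusted p = 0.0586).

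Whether the difference tied to Asb2 depended on the Flna label was tested as an interaction over the 12 libraries. The difference was smaller in size with the Flna label by 0.62 for Hbb-y, 0.46 for Hbb-bh1, 0.50 for Hba-x, 0.27 for Hba-a1 and 0.80 for Hba-a2 on the log2 scale. None of these passed (adjusted p = 0.488 to 0.776, limma). Over the 13981 genes tested 0 passed with limma or with edgeR and 71 with DESeq2, and 1372 had an unadjusted p under 0.05 with limma. The 95% intervals were wide, from -0.26 to 1.49 for Hbb-y and from 0.10 to 1.51 for Hba-a2.

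**Figure D2:**
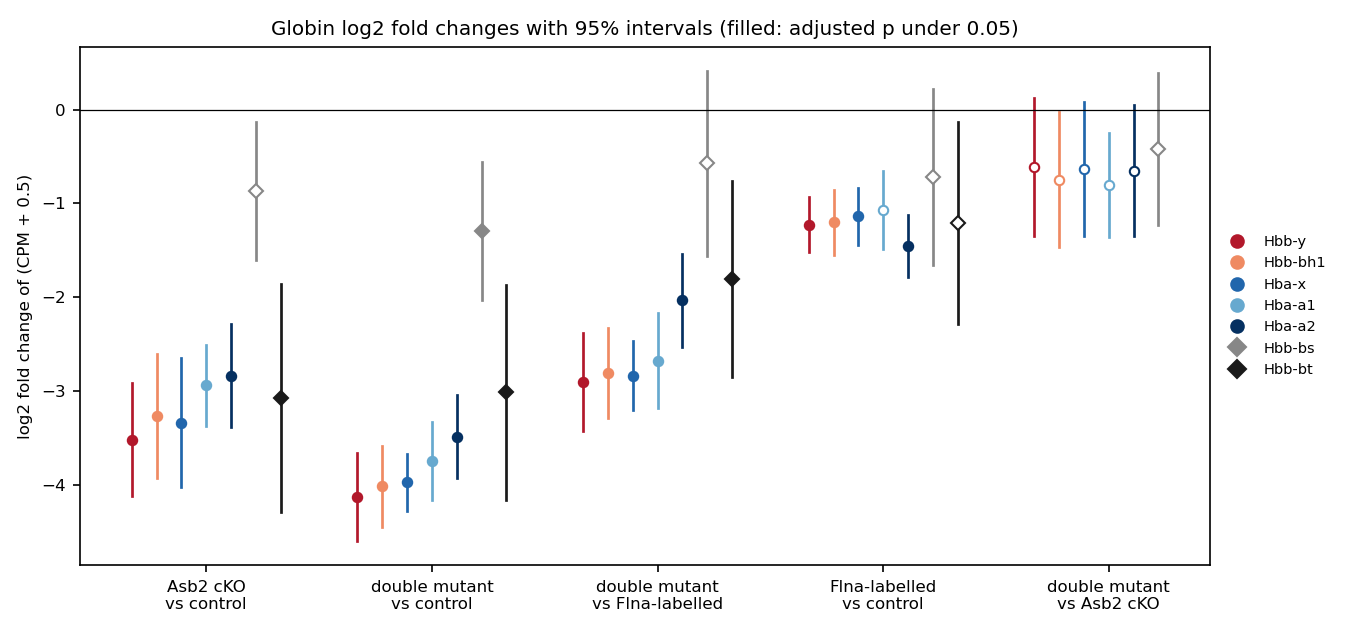
Log2 fold change of CPM + 0.5 for each globin gene in 5 comparisons, with 95% intervals from limma; filled symbols passed at an adjusted p under 0.05. Hbb-y, Hbb-bh1, Hba-x, Hba-a1 and Hba-a2 lie between -2.83 and -3.51 in the Asb2 cKO against the control, while Hbb-bs lies at -0.87.

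The balance among the 5 genes differed by less than the tests could resolve. It was examined through ratios within each library, with 0.5 CPM added to each gene, comparing Asb2 fl/fl with fl/+ within each Flna label by an exact two-sided permutation test (400 arrangements, smallest possible p 0.005, adjusted over 8 tests). Hbb-y to Hbb-bh1, the ratio of the embryonic beta-like genes, was 2.77 ± 0.641 in the control, 2.36 ± 0.751 in the Asb2 cKO, 2.69 ± 0.410 in the Flna-labelled group and 2.51 ± 0.216 in the double mutant (SD, n = 3). The mean log2 difference for Asb2 was -0.17, with a 95% interval of -0.58 to 0.22 and an exact adjusted p of 0.67. The ranges of the 4 groups overlapped. The ratio of embryonic to adult-type alpha, Hba-x to the sum of Hba-a1 and Hba-a2, was 16.4 ± 0.977 in the control and 12.9 ± 5.27 in the Asb2 cKO. It was 16.6 ± 2.21 in the Flna-labelled group and 13.5 ± 2.07 in the double mutant. Its log2 difference for Asb2 was -0.36 (interval -0.74 to 0.04, exact p = 0.08, adjusted 0.52), the nearest of the 8 to the threshold. Asb2 cKO library 3, at 18.8, was the highest of all 12 libraries, and without it the difference was -0.52 (exact p = 0.01, unadjusted).

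The balance of alpha-like to beta-like transcripts, which red cells need in near-equal amounts of protein, had slightly higher means in the mutant groups than in the control. The alpha-like sum over the beta-like sum was 0.351 ± 0.0107 in the control, 0.386 ± 0.0256 in the Asb2 cKO, 0.373 ± 0.0247 in the Flna-labelled group and 0.393 ± 0.0602 in the double mutant. The control libraries, at 0.339 to 0.359, lay below those of the Asb2 cKO, at 0.365 to 0.415, and the other pairs of groups overlapped. The log2 difference for Asb2 was 0.10 (interval -0.08 to 0.24, exact p = 0.215, adjusted 0.573). Without double mutant library 1 it was 0.17 (exact p = 0.01, unadjusted). Hba-a1 to Hba-a2, the ratio that read assignment affects most, differed by -0.37 on the log2 scale (interval -0.86 to 0.10, exact adjusted p = 0.52). For the Flna label the 4 ratios differed by 0.05 to 0.11 (exact adjusted p = 0.76 for each). None of the 8 ratio differences passed. With nothing added to the CPM, so that library scaling drops out, the differences for Asb2 were -0.17, -0.25, 0.09 and -0.21 in the order given here (exact p = 0.345, 0.18, 0.265 and 0.39, unadjusted).

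**Figure D3:**
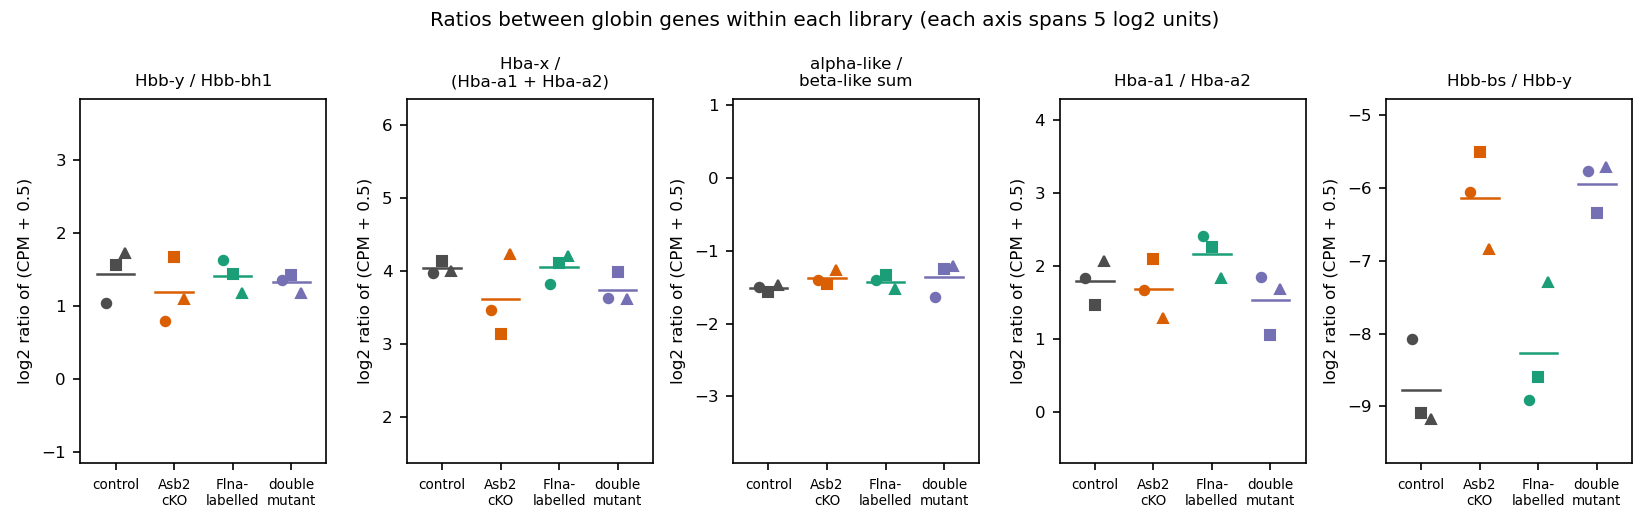
Log2 ratios of CPM + 0.5 between globin genes within each library by genotype group; symbols mark the library number, lines the mean of 3 libraries, and each axis spans the same number of log2 units. In the first 4 ratios the groups overlap, except for the control and Asb2 cKO in alpha-like over beta-like, whereas Hbb-bs to Hbb-y is higher in the 6 libraries with both Asb2 alleles floxed.

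The adult beta genes were at low levels in every group. Control hearts held 13.2, 7.08 and 7.26 CPM of Hbb-bs, Asb2 cKO hearts 2.96, 7.14 and 4.47 CPM, Flna-labelled hearts 2.93, 4.74 and 9.55 CPM and double mutant hearts 5.39, 2.38 and 2.72 CPM. Its groups overlapped except for the control and double mutant. Against the control its log2 fold change was -0.87 in the Asb2 cKO, -0.72 in the Flna-labelled group and -1.29 in the double mutant, of which the last passed (adjusted p = 0.0831, 0.469 and 0.0147, limma). Without double mutant library 2 the last no longer passed (adjusted p = 0.0611), and without Asb2 cKO library 2 the first did (adjusted p = 0.0366). Of Hbb-bt, its near copy, control hearts held 3.42, 9.82 and 11.8 CPM, Asb2 cKO hearts 0.0379, 1.52 and 0.275 CPM, Flna-labelled hearts 3.85, 3.75 and 1.69 CPM and double mutant hearts 1.34, 0.149 and 0.297 CPM. Its libraries varied widely within a group, and the lowest rests on 1 read. The log2 fold change was -3.07 in the Asb2 cKO and -3.01 in the double mutant (adjusted p = 0.00506 and 0.00265, limma), and -1.21 in the Flna-labelled group (adjusted p = 0.351).

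Because these copies share reads, their sum was set against Hbb-y, in a test chosen after the values were seen. With nothing added to the CPM, the sum of Hbb-bs and Hbb-bt over Hbb-y was 0.00429 ± 0.000213 in the control, 0.0154 ± 0.00859 in the Asb2 cKO, 0.00514 ± 0.00173 in the Flna-labelled group and 0.0165 ± 0.00517 in the double mutant (SD, n = 3). The lowest library with both Asb2 alleles floxed, at 0.00837, was above the highest of the others, at 0.00714. The log2 difference for Asb2 was 1.69 (interval 1.06 to 2.38, exact p = 0.005, unadjusted). With 0.5 CPM added to each gene, as in the other ratio tests, it was 1.89 (interval 1.36 to 2.48), and the exact permutation p was 0.005, the smallest the design allows (adjusted 0.015 over 6 such tests). For Hbb-bs alone over Hbb-y the difference was 2.48 (interval 1.60 to 3.26, exact p = 0.005, adjusted 0.015). For Hbb-bt alone it was 0.77 (interval -0.22 to 1.76, exact adjusted p = 0.19), and with nothing added it turned to -0.67 (interval -2.60 to 1.34). The mean of Hbb-bt in the Asb2 cKO was 7.33% of the control, against 53.0% for Hbb-bs and 9.33% for Hbb-y. Relative to Hbb-y, Hbb-bs thus fell less where both Asb2 alleles were floxed, while for Hbb-bt neither direction was resolved. The part of read assignment between the copies, or of reads from other sources at such low levels, was not tested.

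Other members of the globin family were low. Hbq1b, a theta globin gene, reached 1.61, 1.21 and 0.924 CPM in control hearts, against 0.265, 0.380 and 0.413 CPM for the Asb2 cKO and 0.734, 0.338 and 0.624 CPM for the Flna-labelled group. In the double mutant it was at 0.0954, 0 and 0.0991 CPM. Its mean fell below the filter of 1 CPM, so it was not tested, although its group order matched that of the 5 genes. The library at 0 had no read, which allows up to 0.0745 CPM (3 reads, counting error only). Mb, the muscle oxygen store myoglobin, was at 10.01 ± 4.63 CPM in the control and 5.25 ± 3.42 in the Asb2 cKO (log2 fold change -0.91, adjusted p = 0.181, limma). Cygb, cytoglobin, was at 1.43 ± 0.991 CPM in the control and 0.947 ± 0.683 in the Asb2 cKO (adjusted p = 0.634, limma). Unlike the 5 genes it was highest in the Flna-labelled group, at 3.56 ± 1.08 CPM, and was higher there than in the Asb2 cKO and in the double mutant, which had 0.647 ± 0.369 CPM (adjusted p = 0.0378 and 0.00469, limma). Of the 4 of these family genes tested, 1 (Hbb-bt) passed as lower in the Asb2 cKO and 0 as higher, where 10.9% of all genes fell and 10.7% rose.

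Regulators of globin transcription were divided. Of 17 listed, 7 fell and 1 rose in the Asb2 cKO, where 10.9% of all genes fell and 10.7% rose, with a median log2 fold change of -0.70. Klf1, the erythroid activator that binds CACCC elements, had 13.7 ± 1.91 CPM in the control, 1.18 ± 0.832 in the Asb2 cKO, 6.86 ± 2.37 in the Flna-labelled group and 0.341 ± 0.115 in the double mutant (SD, n = 3). Its log2 fold change was -3.18 in the Asb2 cKO (adjusted p = 0.000292, limma). Gata1, the master erythroid factor, fell by 2.68 on the log2 scale (adjusted p = 0.000234, limma), from 7.79 ± 1.08 to 0.783 ± 0.0198 CPM. Ikzf1, a blood-cell zinc finger factor, fell by 2.40 (adjusted p = 0.000796, limma). The gene that rose was Klf3, a repressor of the same family as Klf1, with 0.69 (adjusted p = 0.0152, limma). Bcl11a and Myb, linked to globin switching, had -0.70 and -1.51 without passing (adjusted p = 0.544 and 0.0608, limma). In the double mutant 8 of 17 fell and 1 rose, where 16.7% of all genes fell and 15.6% rose. In the Flna-labelled group 0 of 17 passed, where 0.0432% of all genes fell and 0.0288% rose. Klf1 did not pass there (adjusted p = 0.292, limma).

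Most heme synthesis and iron handling genes fell where both Asb2 alleles were floxed. In the Asb2 cKO 12 of 18 fell and 2 rose (median log2 fold change -0.88), where 10.9% of all genes fell and 10.7% rose. In the double mutant 13 fell and 2 rose (median -0.90), where 16.7% of all genes fell and 15.6% rose. Alas2, the erythroid enzyme that starts heme synthesis, went from 56.6 ± 9.11 to 8.30 ± 5.82 CPM in the Asb2 cKO (log2 fold change -2.88, adjusted p = 0.00191, limma). Alad, the next enzyme, fell by 1.38, and Tmem14c, a mitochondrial porphyrin carrier, by 1.26 (adjusted p = 0.000524 and 0.000292, limma). The genes that rose were Hmox1, which breaks heme down, from 22.3 ± 1.17 to 54.9 ± 8.66 CPM (log2 fold change 1.27, adjusted p = 0.000618), and Tfrc, the transferrin receptor used by most dividing cells (0.79, adjusted p = 0.00587, limma). In the Flna-labelled group 0 of 18 passed, where 0.0432% of all genes fell and 0.0288% rose, with a median of -0.37.

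Genes of the red cell membrane, skeleton and enzymes showed the same direction. Of 20 tested, 17 fell and 0 rose in the Asb2 cKO, with a median log2 fold change of -1.84, where 10.9% of all genes fell and 10.7% rose. Hemgn, a nuclear protein of erythroid cells, had the greatest fall on this list, from 19.1 ± 4.44 to 0.854 ± 0.740 CPM (-3.99, adjusted p = 0.000209, limma). Car2, a carbonic anhydrase of red cells, changed by -2.23 on the log2 scale (adjusted p = 4.79e-05, limma). Car2 was also the gene on this list that fell in the Flna-labelled group, from 61.9 ± 8.28 to 30.4 ± 2.17 CPM (adjusted p = 0.0282, limma), where 1 of 20 passed and 0.0432% of all genes fell. Of the non-globin genes that flank the alpha cluster, 1 of 5 fell in the Asb2 cKO, where 10.9% of all genes fell. With a median log2 fold change of -0.30, 4 of these 5 were below 0, as were 50.4% of all genes. Nprl3, which holds the alpha globin enhancers in its introns, had a log2 fold change of -0.36 (adjusted p = 0.213, limma). Polr3k, an RNA polymerase III subunit, was the gene that fell (-0.61, adjusted p = 0.0309, limma), as it did in the double mutant (-0.60, adjusted p = 0.00764, limma), and Snrnp25 had -0.30 (adjusted p = 0.37).

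Markers of red cells fell to nearly the same degree as the globin genes. Of the 10 markers listed, 8 were measured, and all 8 fell in the Asb2 cKO and in the double mutant, with median log2 fold changes of -2.91 and -3.53. Of all genes tested, 10.9% and 16.7% fell in these groups. In the Flna-labelled group 0 of 8 passed, where 0.0432% of all genes fell, with a median of -0.85. The summed level of the 8 was 177 to 266 CPM in the control libraries, 99.5 to 140 in the Flna-labelled ones, 16.8 to 45.2 in the Asb2 cKO and 10.5 to 15.4 in the double mutant. Per library, the mean log2 level of the 5 globin genes minus that of the 8 markers was 4.70 ± 0.196 in the control, 4.54 ± 0.150 in the Asb2 cKO, 4.37 ± 0.111 in the Flna-labelled group and 4.45 ± 0.144 in the double mutant (SD, n = 3). Against the control, the mean globin level shifted by -3.18, -1.22 and -3.86 in the Asb2 cKO, Flna-labelled and double mutant groups, and that of the markers by -3.01, -0.88 and -3.61. On this scale the globin level relative to these markers shifted by -0.16, -0.33 and -0.25, chosen after the values were seen and given with no test. The 0.5 CPM added to each gene understates the falls of low genes. In the double mutant the means of Klf1 (0.341 CPM) and Rhag (0.157 CPM) lay below it. The size and sign of these shifts are therefore not resolved.

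Markers of other cells varied by cell type, read here against the 10.9% of all genes that fell and the 10.7% that rose in the Asb2 cKO and the 16.7% and 15.6% in the double mutant. Cardiomyocyte markers summed to 23707 to 36136 CPM in the control and 20930 to 36935 CPM in the Asb2 cKO, where 0 of 8 passed (median log2 fold change -0.10). They were 24773 to 39215 CPM in the double mutant, where 2 of 8 rose and 0 fell (median -0.01). In the Flna-labelled group they were 14765 to 27877 CPM, and 0 of 8 passed there. All 8 were still below 0, as were 49.7% of all genes. Their median was -0.62, beside -0.85 for the red cell markers. Of 8 endocardial and endothelial markers, 1 rose and 2 fell in the Asb2 cKO (median 0.23), and 4 rose and 0 fell in the double mutant (median 0.43).

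Among 5 megakaryocyte markers tested 0 passed in the Asb2 cKO. All 5 (median log2 fold change -0.59) were below 0, as were 50.4% of all genes. The sum of the 7 markers measured spread from 10.1 to 59.3 CPM there against 24.6 to 32.1 CPM in the control. In the double mutant 1 of 4 fell, and all 4 (median -0.75) were below 0, as were 49.6% of all genes. The gene that fell was Itga2b, the platelet integrin alpha chain (-0.85, adjusted p = 0.00373, limma). Of 4 leukocyte markers measured 2 were tested and 0 passed in the Asb2 cKO or the double mutant, the sum being 4.97 to 8.25 CPM in the control and 5.20 to 7.87 CPM in the Asb2 cKO.

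Markers of liver bud and yolk sac endoderm varied most within groups and were lowest in the double mutant. They summed to 323, 11.1 and 349 CPM in control hearts. The sums were 103, 7.52 and 51.3 CPM for the Asb2 cKO, 117, 434 and 164 CPM for the Flna-labelled group and 3.22, 5.84 and 4.93 CPM for the double mutant. Every double mutant library was below all the others, every Asb2 cKO library was below all Flna-labelled ones, and the control overlapped both of these groups. In the Asb2 cKO 6 of 6 tested (median log2 fold change -1.82) were below 0, as were 50.4% of all genes, and 1 of the 6 passed. In the double mutant 6 of 6 were below 0, as were 49.6% of all genes, and 1 of the 6 passed. Their median was -3.56, beside -3.97 for the 5 globin genes. The gene that passed was Amn, an endocytic receptor subunit of the yolk sac, with -1.49 and -1.76 (adjusted p = 0.0271 and 0.0106, limma). Against the Flna-labelled group, 5 of 7 passed as lower in the double mutant, where 16.3% of all genes did. In the Flna-labelled group against the control 1 of 8 passed as higher, where 0.0288% of all genes did, and the median was -0.66. Up to 3 of these 8 markers were at 0 in a double mutant library. A part of carried-over tissue in the globin differences was not tested.

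**Figure D4:**
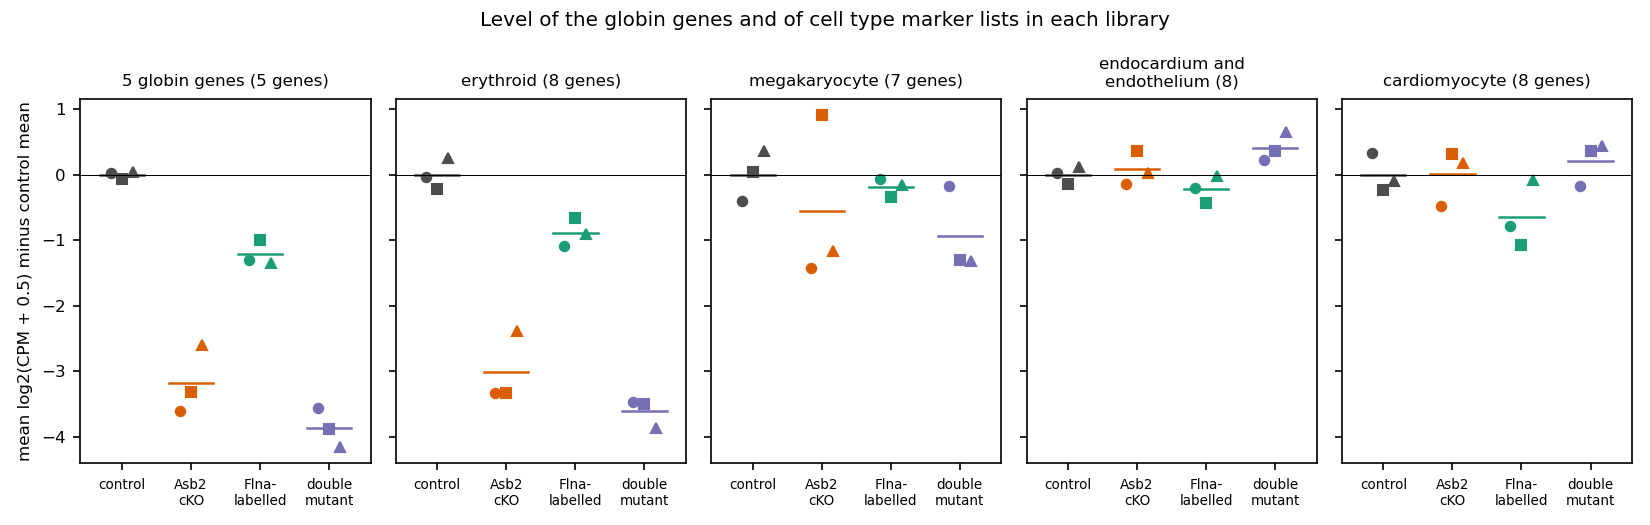
Mean log2(CPM + 0.5) of the 5 globin genes and of 4 lists of cell type markers in each library, relative to the control mean; symbols mark the library number and lines the mean of 3 libraries. The globin genes and the 8 erythroid markers drop together, to -3.18 and -3.01 in the Asb2 cKO, while the cardiomyocyte and endothelial lists stay near the control level in that group.

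The genes whose pattern was most like the globin pattern were named by the correlation of their log2 level with the mean of the 5 genes over the 12 libraries. Of 13976 genes compared, 320 had r above 0.9, which the 4 group means alone can produce. Among the 8 highest were Alas2 (r = 0.99), Klf1 (0.99), Pklr (0.98), Slc4a1 (0.98), Rhag (0.98), Car2 (0.98) and Trim10 (0.98). Slc4a1 encodes the band 3 anion exchanger and Pklr the red cell and liver pyruvate kinase. With group means removed, r was 0.97 for Alas2, 0.27 for Car2 and 0.49 for Rhag. Of the 8 highest, 7 were also among the closest 8 when Hba-a1 and Hba-a2 were left out of the score. Hbb-bt ranked 555 (r = 0.88) and Hbb-bs 2919 (r = 0.66). Among the 5 genes themselves r was 0.97 to 1.00 over libraries. With group means removed it ran from 0.94 for Hba-x with Hba-a2 and 0.90 for Hbb-y with Hba-x down to 0.23 for Hbb-bh1 with Hba-a1. The libraries of a group share genotype and each library shares its scaling across genes, so these values are descriptions.

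The authors' deposited table for the Asb2 cKO against the control gave log2 fold changes of -3.42 for Hbb-y, -3.17 for Hbb-bh1, -3.21 for Hba-x, -2.98 for Hba-a1 and -2.96 for Hba-a2, each with an FDR under the threshold of 0.05, as 26.6% of its genes had. In the authors' deposited table for the Flna-labelled group all 5 passed, where 0.78% of its genes did: the log2 fold change was -1.06 for Hba-a1 (FDR 0.00131) and -1.50 for Hba-a2 (FDR 0.000239). That table thus calls Hba-a1, which limma did not, and its FDR for the other 4 genes was also lower than the adjusted p of limma. In the authors' deposited table for the double mutant against the Asb2 cKO, where 0.145% of genes passed, the 5 genes had log2 fold changes of -0.66 to -0.85 and an FDR of 0.111 to 0.788. For the double mutant against the control the authors' deposited table, in which 28.9% of genes passed, gave -4.08 for Hbb-y and -1.39 for Hbb-bs (FDR 0.0177).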

How the data were processed

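RNA of 12 mouse heart libraries was sequenced, and the submitters' processing notes name STAR, HTSeq and edgeR with the mm10 genome, without versions or settings. The 4 deposited tables each hold CPM for a pair of groups. The deposited CPM columns carry the unit signal here, because they sum to 942334 to 1051801 and not to a fixed total. All values (100%) were whole multiples of 1 read within 0.01 read, so they are counts divided by a scaled library size. The plan had assumed plain CPM, and the test kept to it. Deposited fold changes are log2 values computed by the authors, whose own test gave the deposited p-values and FDR. The deposited gene length served only for levels per kilobase. A further 12 columns without headers were not used. Tables were joined on gene ID, since a library found in several of them differed between them by 4.4e-06 CPM at most.

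The comparisons used limma 3.58.1 with trend and robust fitting (R 4.3.3) on log2(CPM + 0.5), keeping genes that averaged 1 CPM or more in the libraries fitted. The p-values were adjusted by Benjamini-Hochberg over all genes tested, with a threshold of 0.05. Fold changes on this scale understate those of low genes. Ratios were tested by exact permutation, with 95% intervals from inverting the test in steps of 0.02. Alternatives on the recovered reads were edgeR 4.0.16 (quasi-likelihood test) and DESeq2 1.42.0. Others were further pseudocounts (0.1 and 2), filters (none and 5 CPM) and scalings, a joint fit, a replicate block and leaving out each library. The fit and the permutation test were checked on simulated data. Replicate libraries differed by more than sampling noise in all 12 pairs (mean chi-square per gene at least 20.3 for genes with 20 or more reads).

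The members, gene lists, comparisons and alternatives were chosen with earlier results of these data known. Named were the 5 genes, other globin genes, the 3 genes with the smallest p in the Asb2 cKO for each list, and the 8 genes most like the globin mean. Results for some genes that this rule names are not reported here. Further names (Klf3, Tfrc, Alas2, Bcl11a, Myb, Itga2b) were chosen after their values were seen. Genomic positions came from GENCODE M21, and promoters and motif searches from the RefSeq table of GRCm38.p6. Python 3.11.15, pandas 2.3.3, scipy 1.17.1, biopython 1.88 and matplotlib 3.10.9 were used.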

Additional observations from a re-analysis of the deposited data

How the results depend on the processing

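Of 1177 values recomputed under an alternative, 1086 kept their direction and side of the threshold. The falls of the 5 globin genes in the Asb2 cKO and in the double mutant, against the control or the Flna-labelled group, did so throughout, except that Hba-a2 in the Asb2 cKO did not pass against the Flna-labelled group without Flna-labelled 2 (adjusted p = 0.0586, limma); the calls of the Flna-labelled group against the control did not. Depth limits Hbb-bt, Hbq1b and Hba-a2, which rest on few reads in mutant libraries.

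For Asb2 cKO vs control, 3033 genes passed with limma and 1581 to 2508 on leaving out a library. For Flna_labelled vs control, 10 passed, against 0 without trend or robust fitting, 2 in the joint fit, 0 with edgeR, 244 with DESeq2 and 0 to 98 on leaving out a library. For double_mutant vs control, 4523 passed and 2875 to 4342 on leaving out a library. For double_mutant vs Asb2_cKO, 3 passed, against 0 in the joint fit, 14 with DESeq2 and 2 to 26 on leaving out a library. For double_mutant vs Flna_labelled, 4394 passed and 2712 to 4623 on leaving out a library. For Flna_labelled vs Asb2_cKO, 2193 passed, against 1355 without trend or robust fitting, 3346 in the joint fit and 609 to 2374 on leaving out a library. For the interaction, 0 passed, against 71 with DESeq2 and 0 to 18 on leaving out a library. The cause of these shifts was not tested, except that leaving out a library leaves fewer samples.

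The replicate numbers did not pair the libraries: the deviations of same-numbered libraries from their group means had r of -0.46 to 0.43, and 0 of 6 pairs of groups had every r above 0.1. With the replicate number as a block, 1557 genes passed for the Asb2 cKO and 1 for the Flna-labelled group against the control, and 4 of 35 globin calls changed, those of Hbb-y, Hbb-bh1, Hba-x and Hba-a2 in the latter (adjusted p = 0.0957 to 0.434, limma). With the block, Hba-x over the adult-type alpha sum kept its Asb2 difference of -0.36, with p = 0.04 (permutation test, unadjusted). This p is not exact, because values were centred by replicate number but permuted across those numbers.

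Leaving out a library, the ratio differences for Asb2 ran from -0.29 to -0.07 for Hbb-y over Hbb-bh1, from -0.52 to -0.24 for Hba-x over the adult-type alpha sum and from 0.0615 to 0.17 for alpha-like over beta-like. For the Flna label they ran from -0.05 to 0.18 for Hbb-y over Hbb-bh1 (-0.0455 without control 1 and -0.0429 without Asb2 cKO 1) and from -0.05 to 0.23 for Hba-x over the adult-type alpha sum (-0.0487 without Asb2 cKO 2), so these turned sign. Hbb-bt over Hbb-y reversed to -0.67 for Asb2 with no pseudocount. Hbb-bs in the Flna-labelled group against the Asb2 cKO reversed to -0.12 without Asb2 cKO 1 and -0.26 without Flna-labelled 3, the highest value being 0.51. Its interaction reversed to -0.0633 without Flna-labelled 1 and -0.0204 without double mutant 1, the highest value being 0.71. None of these reversed values had passed.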
